A study of Homo sapiens with 6 samples.

Results

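Cells of an epithelium are held together by adherens, tight and gap junctions and by desmosomes, and the genes of these structures are described here in the C4-2B prostate cancer line and its abiraterone-selected subline. The genes were chosen by symbol alone: cadherins (CDH), protocadherins (PCDH), claudins (CLDN), desmogleins and desmocollins (DSG, DSC), connexins (GJA to GJD), TJP, PKP, CEACAM and nectin genes, with OCLN, EPCAM, DSP, JUP, ESAM, F11R and MARVELD2. Of the 6018 genes in the authors' deposited table, 36 protein-coding genes carried such a symbol. GENCODE release 29 (GRCh38) annotates 171 protein-coding genes under the same symbols, which leaves 135 that the table does not list.

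The C4-2B line descends from LNCaP cells grown in castrated mice and is labelled as a bone metastasis. The selected subline was passaged in abiraterone, an inhibitor of androgen synthesis, at 1 to 20 µM and then kept in 5 µM; it is given as passage 15 to 18 and has 3 libraries. The parental line was carried in parallel in 1% DMSO, is given as passage 0 and has 3 libraries as well. The cell lines thus also differ in passage number, and the effects of both cannot be told apart. Both grew in RPMI medium with 10% serum, and the extraction protocol names 10 µM abiraterone in words that may refer to either line or both. Nothing in the labels says whether the subline is a clone or whether libraries came from separate cultures.

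What was deposited is a DESeq2 table by the authors that sets conditions C and V against each other and holds no value per library. A positive log2 fold change means higher in C, per the header, which spells C out as control and V as vehicle. The letter V occurs in the titles of the parental libraries, whereas the series text calls the parental cells the control. Elimination would make C the abiraterone-selected cells, which no header line states. Each direction is therefore named by the letter of the higher side. A gene was called when its adjusted p (DESeq2's Wald test, Benjamini-Hochberg) was under 0.05. Every listed p was under 0.05 and no listed fold change was near 0, so a gene that is not listed may have missed either limit, and its level is not known here. Levels on each side were worked out from a gene's listed mean and its fold change, assume equally many libraries per side and carry no error of their own. Levels below are in normalised counts, and values written ± are log2 fold changes, C divided by V, with the standard error. In such bulk RNA, fewer cells of a type and less RNA per cell cannot be told apart.

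Tight junctions seal the space between neighbouring epithelial cells and are built from claudins, occludin and adhesion molecules that are anchored inside the cell by scaffold proteins. Adherens junctions join cells through classical cadherins, which bind catenins, and through nectins. Desmosomes tie the keratin network of neighbouring cells together through desmogleins and desmocollins. Connexins form gap junction channels for small molecules, protocadherins are a large family best known from the nervous system, and CEACAM proteins are adhesion molecules of the immunoglobulin superfamily.

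Most called junction genes were higher in V, and tight junction genes, nectins and CEACAM genes were called on that side alone. Of the 36 listed genes 29 were called, 23 higher in V and 6 higher in C. Calls were the rule in this preselected list, since 92.6% of all listed protein-coding genes were called (31.6% with C on the higher side, 61.0% with V). Among called protein-coding genes 34.1% had C and 65.9% had V on the higher side, and among called junction genes V was the higher side for 79.3%. Against the annotation, 3.51% of the 171 junction genes were called with C as the higher side and 13.5% with V. For all annotated protein-coding genes these shares were 4.68% for C and 9.03% for V. The median log2 fold change over called junction genes was -2.05, beside -1.55 over the 2736 called protein-coding genes. No test was made of these shares.

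**Figure D1:**
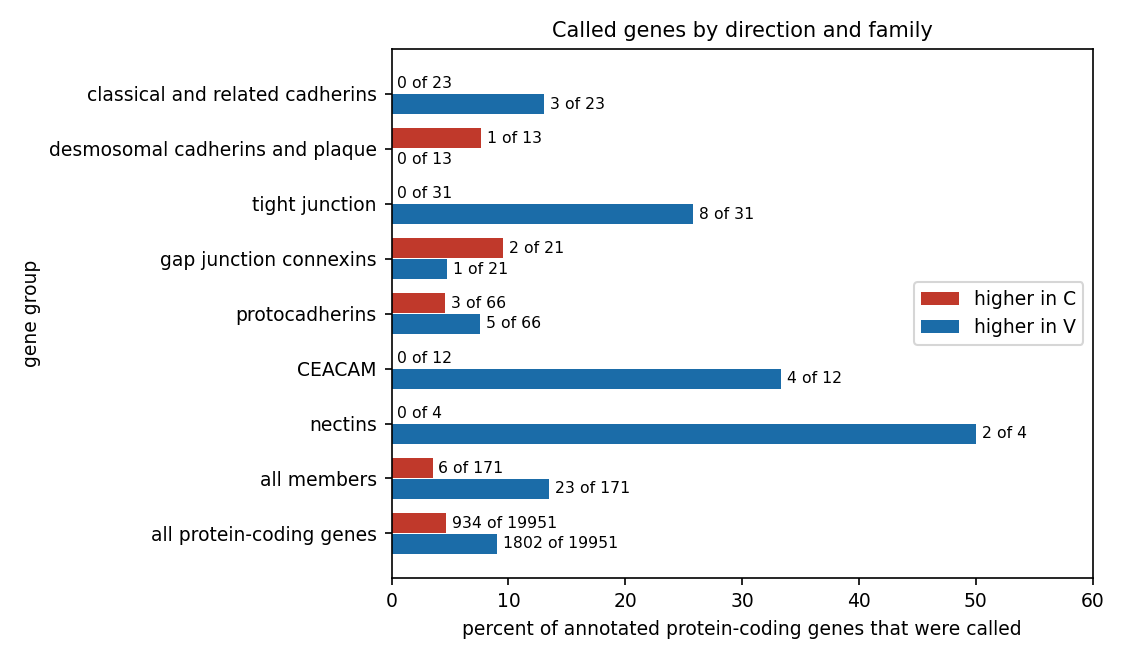
Called genes in each family, as a percentage of its annotated protein-coding genes (x axis), for genes higher in C (red) and higher in V (blue), with counts beside the bars. Tight junction genes were called in V only (8 of 31), and 2 of 21 connexins were called in C.

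The tight junction genes formed the most abundant group, with 8 called genes of 31 annotated, all higher in V and with a median log2 fold change of -1.76. The claudin CLDN4, which lies at 73799542 to 73832693 on chromosome 7, had derived levels of 997 in C and 5452 in V, from the authors' deposited table. Its listed fold change in the authors' deposited table, -2.45 ± 0.09, made C 5.47-fold lower, with a 95% interval of 4.82 to 6.20. CLDN7, a claudin of many simple epithelia (chromosome 17, 7259903 to 7263983), had 1126 in C and 2981 in V; the authors' deposited table lists it at -1.40 ± 0.06. These 2 claudins made up 46.6% of the summed derived level of all listed junction genes in C and 54.4% of it in V. Per kilobase of annotated exon, CLDN7 stood at 452 in C and 1196 in V, and CLDN4 at 212 in C and 1160 in V; these were the highest levels per kilobase of any listed junction gene on either side.

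OCLN, which encodes occludin, a membrane protein spanning the junction, had 264 in C and 1098 in V; the authors' deposited table lists it at -2.05 ± 0.12. F11R encodes the junctional adhesion molecule JAM-A and had 296 in C and 823 in V (-1.47 ± 0.09, as in the authors' deposited table). The scaffold gene TJP3, whose protein binds the tails of claudins, had 159 in C and 408 in V (-1.36 ± 0.14 per the authors' deposited table). The less abundant CLDN23 had 35.6 in C and 95.5 in V (-1.43 ± 0.24 per the authors' deposited table). All 4 thus changed in the direction of CLDN4 and CLDN7, by 2.57-fold for TJP3 to 4.15-fold for OCLN.

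CLDN1, a barrier claudin of skin and other stratified epithelia, showed the widest difference among the called claudins. Its derived levels were 1.22 in C and 50.8 in V, and its log2 fold change in the authors' deposited table was -5.38 ± 0.77, so C was 41.7-fold lower with a 95% interval of 14.6 to 119. ESAM, an adhesion molecule known from endothelium, had 4.83 in C and 30.8 in V (-2.67 ± 0.61, the authors' deposited table). The endothelial genes CDH5 and CLDN5, which belong to the same families, were not listed, nor were VWF and KDR. Calls were made for 3 of 12 endothelial markers, each with V above C. Their summed derived levels were 5.16 in C and 59.1 in V including ESAM, and their part in the ESAM result was not tested. Beside this and the marker counts below stand 13.7% of all annotated protein-coding genes called and 65.9% of called ones higher in V. CLDN14 was listed at -3.44 ± 1.58 per the authors' deposited table and was not called (adjusted p = 0.0652, DESeq2's Wald test). CLDN3, TJP1 and MARVELD2 were not listed, although CLDN3 is the coding neighbour of CLDN4 at 29.3 kb and MARVELD2 that of OCLN at 48.0 kb.

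**Figure D2:**
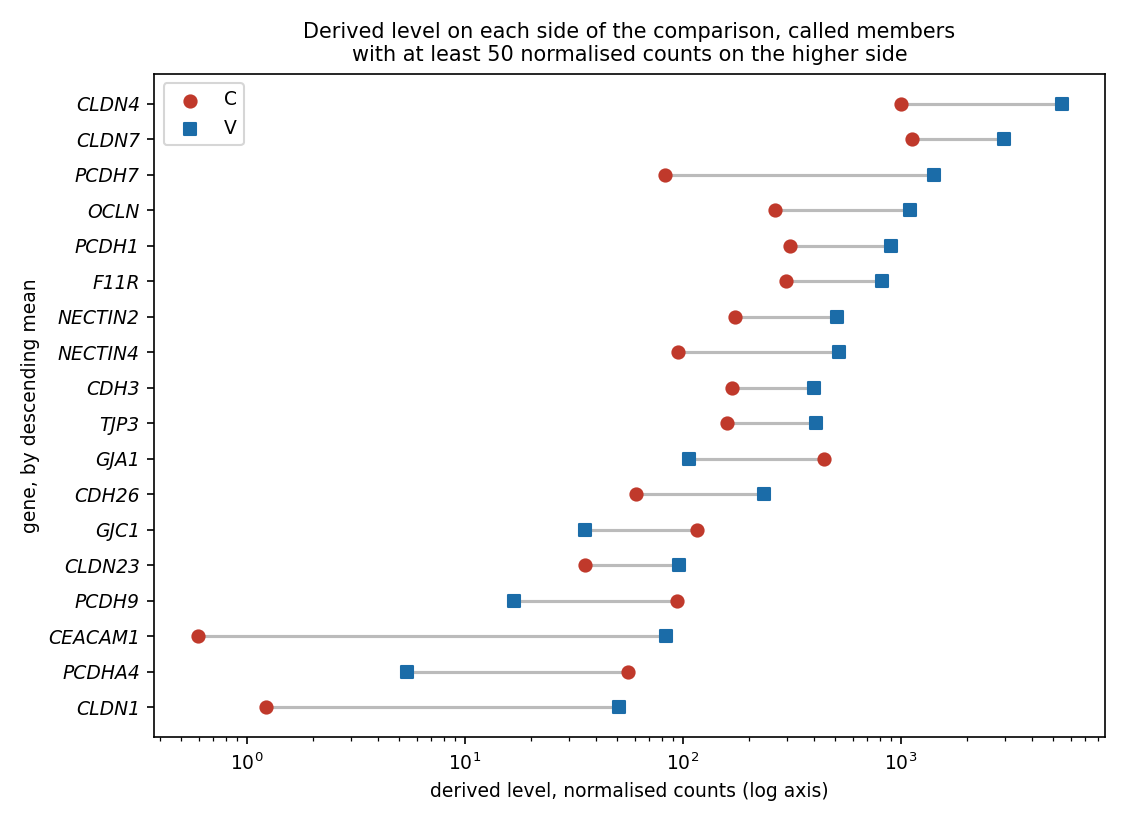
Derived level in C (red circles) and V (blue squares) of each called junction gene with at least 50 normalised counts on its higher side, on a log axis, genes in descending order of mean. V lies to the right of C for 14 genes from CLDN4 down to CLDN1, and C lies to the right of V for GJA1, GJC1, PCDH9 and PCDHA4.

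The sequences before the start sites of the most abundant members are shown because these genes moved together and their promoters are where such genes are usually read for shared motifs; the choice was made after their values were seen. RefSeq windows (GRCh38.p14) of 250 bases before a start were found for 29 of the 36 genes; those without one included CDH3, CDH15, CLDN23, ESAM, F11R and GJC1. Both strands were searched for CACCTG, the E-box bound by ZEB and SNAI repressors, TGANTCA, the AP-1 element, AACCGGTT, a Grainyhead element, and the core of the interferon-stimulated response element; none of the 4 motifs contains another. For CLDN4, CLDN7, OCLN and the most abundant gene higher in C, GJA1, the windows hold annotated exon bases, so 30 bases around the matches are given, 5′ to 3′ on the gene's strand, with the motif in capitals (CAGGTG is CACCTG read on the other strand). CLDN7 has a further window that is free of annotated exons. The stretches are as follows, beginning with AP-1 elements of CLDN4 at chr7:73830746-73830775 and chr7:73830823-73830852 (plus strand).
CLDN4 first AP-1: ctgggctgTGATTCAgtgtctgtctcccgg
CLDN4 second AP-1: gagactggatagTGACTCAgggacccgggg
The E-boxes of CLDN7 lie at chr17:7262635-7262664, chr17:7262596-7262625 and chr17:7262481-7262510 (minus strand), the last stretch holding a pair of them.
CLDN7 first E-box: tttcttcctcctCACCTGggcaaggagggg
CLDN7 second E-box: cgacttccggttCAGGTGagtgtcccttcg
CLDN7 E-box pair: cctacatatactCAGGTGcgcccCACCTGt
Those of OCLN lie at chr5:69492502-69492531 and chr5:69492645-69492674 (plus strand), in windows of separate start sites.
OCLN first E-box: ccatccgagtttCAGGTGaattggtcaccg
OCLN second E-box: tctaggacgcagCAGGTGggactcgcggcg
GJA1 has an AP-1 element at chr6:121435586-121435615 (plus strand).
GJA1 AP-1: cctcctcccagtTGAGTCAgtggcttgaaa

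CACCTG occurred in 0 of 6 windows of called genes higher in C and in 7 of 22 windows (31.8%) of called genes higher in V, against 17.5% of all 35116 RefSeq windows. The 6 windows belong to 5 genes and the 22 to 18 genes, and OCLN counts among the 7 with both of its overlapping windows. TGANTCA occurred in 1 of 6 windows (16.7%) of genes higher in C and in 1 of 22 (4.55%) of genes higher in V, against 6.57% of all windows. The interferon response core was in 0 of 6 windows of genes higher in C and in 2 of 22 (9.09%) of genes higher in V, those of CLDN7 and CEACAM1, against 3.02% of all windows. AACCGGTT was found in none of these 28 windows and in 0.117% of all windows. These matches are descriptions of letters in the windows, which differ in base composition, and no test was made.

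Whole windows free of annotated exons are given for the 3 most abundant called genes that have them, CLDN7 (chr17:7263214-7263463, minus strand), PCDH7 (chr4:30720119-30720368, plus strand) and PCDH1 (chr5:141869628-141869877, minus strand). Capitals mark the interferon response core in CLDN7 and the E-box in PCDH1; none of the 4 motifs occurs in the PCDH7 window.
CLDN7: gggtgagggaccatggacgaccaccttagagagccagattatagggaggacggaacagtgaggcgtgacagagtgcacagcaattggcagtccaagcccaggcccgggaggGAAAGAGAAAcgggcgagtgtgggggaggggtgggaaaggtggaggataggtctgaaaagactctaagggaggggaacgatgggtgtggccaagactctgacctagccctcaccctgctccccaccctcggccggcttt
PCDH7: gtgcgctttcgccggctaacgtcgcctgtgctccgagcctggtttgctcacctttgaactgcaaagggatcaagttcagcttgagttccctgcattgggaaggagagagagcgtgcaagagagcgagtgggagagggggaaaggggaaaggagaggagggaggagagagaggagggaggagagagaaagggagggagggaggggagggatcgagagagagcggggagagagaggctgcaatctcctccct
PCDH1: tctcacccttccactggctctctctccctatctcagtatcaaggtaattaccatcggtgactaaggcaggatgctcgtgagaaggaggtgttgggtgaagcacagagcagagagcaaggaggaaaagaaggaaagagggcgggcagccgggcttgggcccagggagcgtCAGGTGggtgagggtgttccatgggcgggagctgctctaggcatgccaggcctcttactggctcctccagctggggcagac

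Adherens junction genes, cadherins and nectins, were likewise called in V where they were called. Of the 23 cadherin genes named CDH 5 were listed and 3 were called. CDH3 encodes P-cadherin, the classical cadherin of basal epithelial cells, and had 168 in C and 400 in V; the authors' deposited table lists it at -1.25 ± 0.17. Basal epithelial markers moved with it: 7 of 10 were called, all higher in V, and their summed derived level was 204 in C and 1398 in V including CDH3, with KRT6A at 446 in V and KRT14 and TP63 not listed; their part in the CDH3 result was not tested. CDH26, a cadherin of epithelia with an inflammatory infiltrate, had 60.9 in C and 236 in V (-1.96 ± 0.17, the authors' deposited table). CDH19, a cadherin of Schwann cell precursors, had 0.157 in C and 4.28 in V, or -4.77 ± 1.57 per the authors' deposited table, a level at which the size of the fold change is poorly determined.

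CDH1, which encodes E-cadherin and is the next coding gene after CDH3 on chromosome 16 at a distance of 14.6 kb, was not listed. CDH2, the N-cadherin gene that is often read against it, was not listed either. CDH23, a cadherin of sensory hair bundles, was listed at -3.18 ± 1.62 per the authors' deposited table and was not called, with an adjusted p of 0.101 (DESeq2's Wald test) and a 95% interval of -6.34 to -0.01 on the log2 scale. CDH15, a muscle cadherin, was listed at -1.43 ± 0.64 per the authors' deposited table and missed the call at an adjusted p of 0.0560 (DESeq2's Wald test).

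Both listed nectin genes were called. NECTIN4, the target of the antibody-drug conjugate enfortumab vedotin, had 94.7 in C and 519 in V; the authors' deposited table lists it at -2.46 ± 0.13, so that C was 5.48-fold lower with a 95% interval of 4.59 to 6.55. NECTIN2, also a ligand of lymphocyte receptors, had 174 in C and 510.5 in V (-1.56 ± 0.13 per the authors' deposited table). NECTIN4 and F11R lie 49.6 kb apart on chromosome 1, with 3 coding genes between them. NECTIN1 and NECTIN3 were not listed.

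Desmosomes were represented by a single listed gene of 13. DSC3, a desmocollin of basal and stratified epithelium, was higher in C, with 6.44 in C and 1.26 in V and a log2 fold change of 2.35 ± 0.84 per the authors' deposited table (adjusted p = 0.0134, DESeq2's Wald test). Its 95% interval in fold ran from 1.63 to 15.9 at a mean of 3.85 counts. Neither the plaque genes DSP, JUP and PKP1 to PKP3 nor the cadherins DSG2 and DSC2 were listed, so no statement about desmosomes as a whole can be drawn from DSC3.

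Among gap junction genes, 2 of the 21 annotated connexins were called higher in C, GJA1 and GJC1. GJA1, which encodes the most widely expressed connexin, had 446 in C and 107 in V; the authors' deposited table lists it at 2.06 ± 0.77 (adjusted p = 0.0188, DESeq2's Wald test). The interval in fold, 1.47 to 11.8, was wide for its level: its standard error exceeded that of 97.2% of the 1342 listed genes with a mean of 100 to 1000, whose median was 0.147. With no value per library, it cannot be seen which libraries differ. GJC1, a connexin of heart and smooth muscle, had 116 in C and 35.4 in V (1.72 ± 0.41, the authors' deposited table). GJB6 was listed at 2.89 ± 1.41 per the authors' deposited table and not called. GJB1 and GJB2 were not listed.

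**Figure D3:**
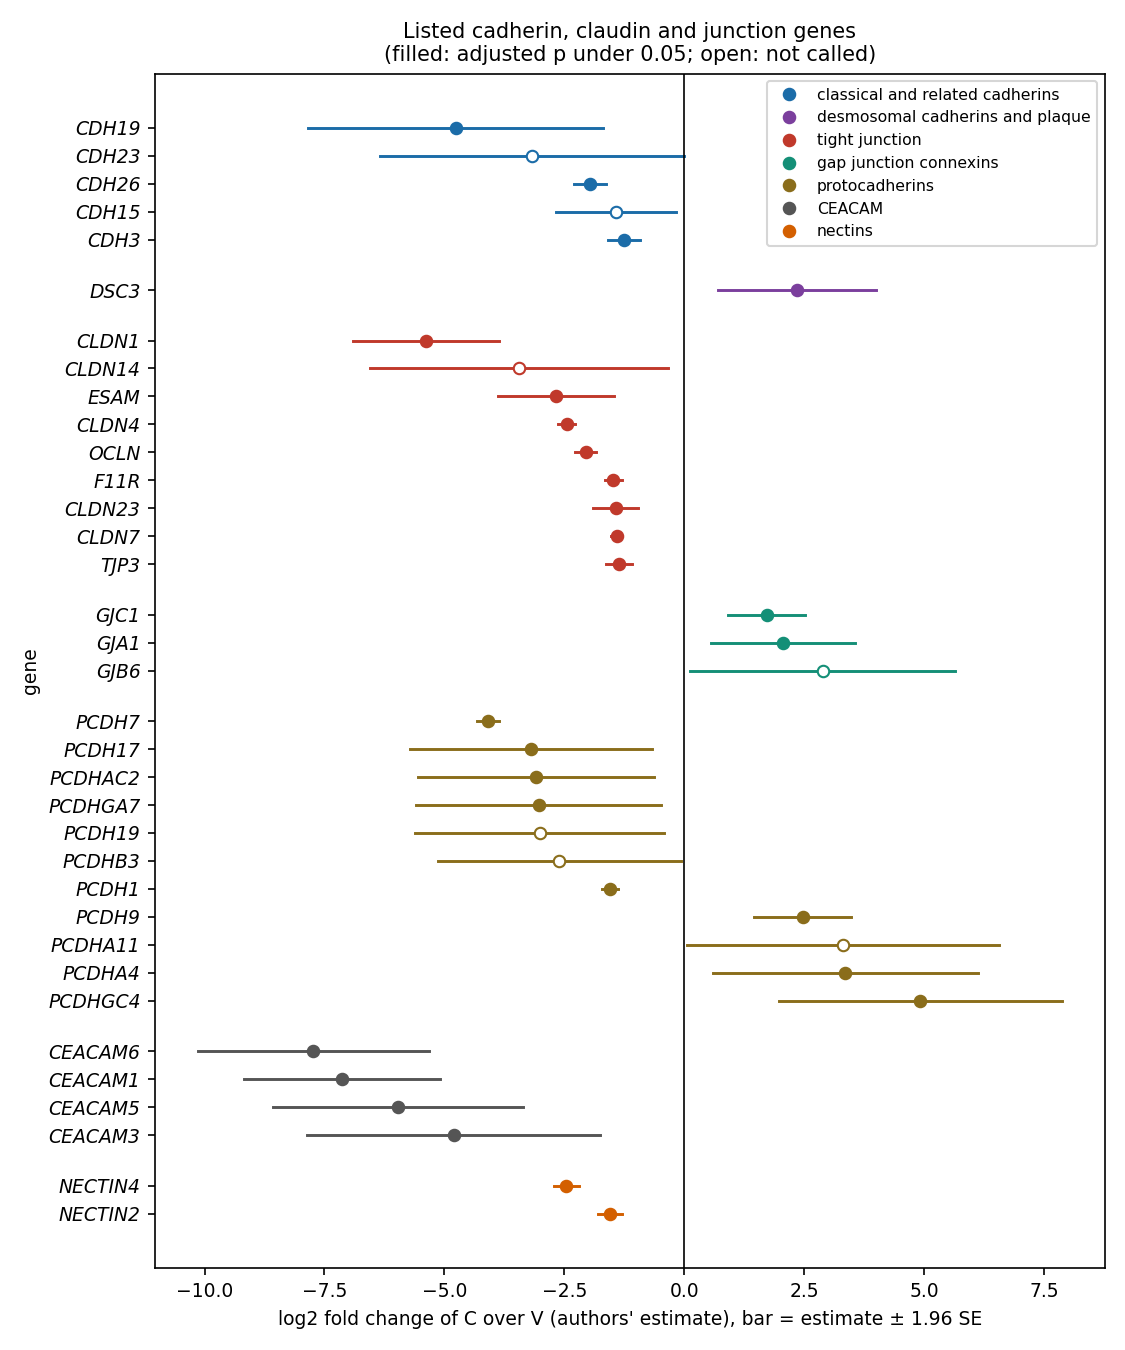
Log2 fold change of C over V for the listed junction genes named in the text, as the authors estimated it, with 95% intervals as bars; filled points were called and open points were not, and colours mark the families. All tight junction, nectin, CEACAM and CDH points lie left of 0, the connexins drawn lie right of 0, and protocadherins lie on both sides.

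Protocadherins were called on both sides, with 3 of 8 called genes higher in C and 5 (62.5%) higher in V. That share was near the 65.9% of all called protein-coding genes. Called protocadherins made up 12.1% of the 66 annotated, near the 13.7% of all annotated protein-coding genes. PCDH7, a protocadherin outside the clusters (chromosome 4, 30720415 to 31146805), had 83.1 in C and 1416 in V. Its log2 fold change of -4.09 ± 0.12 per the authors' deposited table made C 17.0-fold lower with a 95% interval of 14.5 to 20.1, and its p of 1.53e-253 was the smallest of any junction gene (DESeq2's Wald test). PCDH1, a protocadherin of airway and other epithelia, had 309 in C and 898 in V (-1.54 ± 0.09 per the authors' deposited table). PCDH17 was called at much lower levels, 2.68 in C and 24.4 in V (-3.19 ± 1.29, the authors' deposited table). In the other direction, PCDH9, a protocadherin of neurons, had 93.4 in C and 16.8 in V; the authors' deposited table lists it at 2.47 ± 0.52. Among neural markers SNAP25 alone of 10 was listed, and it too was higher in C with 145 in C and 2.91 in V, from the authors' deposited table; its part in the PCDH9 result was not tested. PCDH19 was listed at -3.02 ± 1.32 per the authors' deposited table, just outside the call with an adjusted p of 0.0518 (DESeq2's Wald test).

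The clustered protocadherins on chromosome 5 are read from variable first exons joined, in the alpha and gamma clusters, to constant exons that all genes of a cluster share. Of 53 annotated genes 6 were listed and 4 were called, PCDHA4 (3.36 ± 1.41) and PCDHGC4 (4.92, 95% interval 1.98 to 7.87) higher in C and PCDHAC2 (-3.08 ± 1.26) and PCDHGA7 (-3.03 ± 1.30) higher in V, per the authors' deposited table. PCDHA4 had 56.0 in C and 5.44 in V, and PCDHAC2 of the same cluster had 4.45 in C and 37.7 in V, so the alpha cluster held a gene on either side. Of all 50-base stretches in annotated transcripts, 23.1% of those of PCDHA4, 45.0% of PCDHAC2, 39.8% of PCDHGA7 and 42.6% of PCDHGC4 also occurred in transcripts of other genes, with genes of the same cluster as the leading partners. Reads were 50 bases long, so the division of reads among these genes is uncertain. Standard errors were large as well: that of PCDHA4 exceeded 98.9% of those of the 2319 listed genes with a mean of 10 to 100. PCDHA11 and PCDHB3 were listed at 3.30 ± 1.66 and -2.60 ± 1.29 per the authors' deposited table and not called.

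CEACAM genes had the lowest median of any family with calls, with 4 called genes of 12, all higher in V and with a median log2 fold change of -6.55. All 4 had a derived C level under 1, so the sizes of these fold changes are poorly determined. CEACAM1, an adhesion receptor of epithelial and immune cells, had 0.594 in C and 83.2 in V; the authors' deposited table lists it at -7.13 ± 1.04. CEACAM6 had 0.169 in C and 35.8 in V (-7.73 ± 1.23 per the authors' deposited table), and CEACAM5, the carcinoembryonic antigen, had 0.166 in C and 10.4 in V (-5.97 ± 1.33 per the authors' deposited table). CEACAM3, a granulocyte receptor, had 0.158 in C and 4.41 in V (-4.81 ± 1.56 per the authors' deposited table). CEACAM5, CEACAM6 and CEACAM3 are successive coding genes on chromosome 19, 21.2 and 24.2 kb apart, and CEACAM1 lies 696 kb beyond. Of the 50-base stretches, 16.3% of those of CEACAM5, 6.99% of CEACAM6, 4.02% of CEACAM3 and 3.29% of CEACAM1 also occurred in other genes. For CEACAM5 the leading partner was AC243967.1, which overlaps 16.2% of its exon bases on the same strand. For CEACAM6, CEACAM3 and CEACAM1 the leading partners were other CEACAM genes. The division of the fewer CEACAM3 and CEACAM5 reads is therefore uncertain. Of 12 leukocyte markers 4 were called, all higher in V, where 65.9% of all called protein-coding genes also were. The summed derived level over 5 listed markers was 2.47 in C and 85.6 in V, with PTPRC, the pan-leukocyte antigen, at 35.7 in V. CD3E, CD4 and MS4A1 were not listed. The part of the leukocyte markers in the CEACAM result was not tested.

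**Figure D4:**
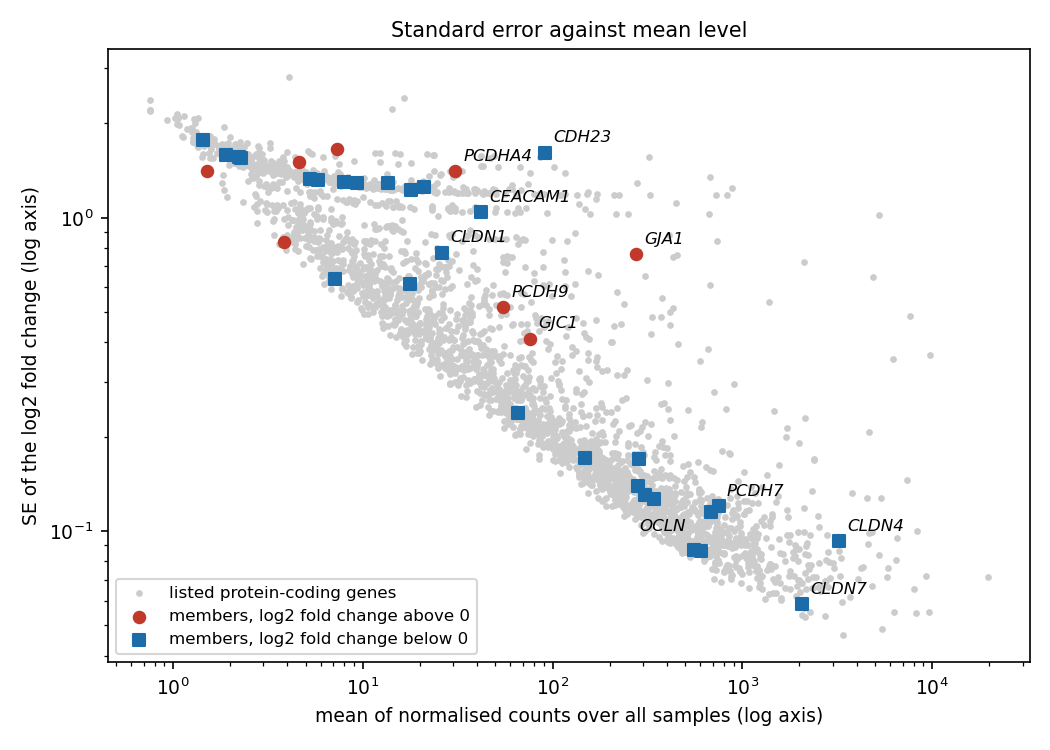
Standard error of the log2 fold change against a gene's mean normalised count, both on log axes, for listed protein-coding genes (grey), junction genes with a fold change above 0 (red circles) and below 0 (blue squares). CLDN7, F11R and PCDH1 lie along the lower edge, whereas GJA1, CDH23 and PCDHA4 lie above most genes of their level.

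Precision thus differed among members, each ranked among the listed genes in its own range of means. The ranges are wide and standard errors fell with the mean, so a rank also depends on a gene's place in its range. The standard errors of CLDN7 (0.06), F11R (0.09) and PCDH1 (0.09) in the authors' deposited table were among the lowest 5% for their range of means, at percentiles 4.80, 4.32 and 3.87. By contrast CDH23 (1.62 in the authors' deposited table) stood at percentile 99.9 of another range, that of means from 10 to 100. Of the 18 called genes with at least 50 counts on the higher side, 4 were higher in C and 14 (77.8%) higher in V. Among the 1777 called protein-coding genes at that level, 635 were higher in C and 1142 (64.3%) higher in V. The 4 junction genes higher in C had standard errors of 0.41 to 1.41. For F11R, 35.8% of its 50-base stretches also occurred in other genes, with a gene that overlaps it on the same strand as the leading partner. For OCLN the figure was 8.60%, with the pseudogene OCLNP1 as the main partner. For CLDN7 it was 8.25%, shared with AC003688.1, which overlaps 10.8% of its exon bases on the same strand.

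Lists of genes that work with these junction proteins are given by their counts, beside the 13.7% of all annotated protein-coding genes that were called. Among 16 catenin and plaque partners, none of the catenins CTNNB1, CTNNA1 and CTNND1 was listed, and 2 genes were called, both higher in V: ZYX, encoding the actin-linked protein zyxin, at -1.53 ± 0.11 and the neuronal alpha-catenin CTNNA2 at -1.90 ± 0.41 per the authors' deposited table. Of 26 tight junction scaffold and polarity partners, the polarity gene CRB3 (-1.43 ± 0.14) and the angiomotin relative AMOTL2 (-1.63 ± 0.16) were called with V above C, per the authors' deposited table. Of 11 keratin and envelope partners of desmosomes 5 were called, 4 of them higher in V. They included PERP, a desmosomal membrane protein, with 431 in C and 1875 in V (-2.12 ± 0.09 per the authors' deposited table), and KRT8 (-1.45 ± 0.10 per the authors' deposited table), while KRT19 was higher in C with 1297 in C and 257 in V (2.33 ± 0.18 per the authors' deposited table). PANX2, of the pannexin channels related to connexins in fold, was higher in V (-2.17 ± 0.21 per the authors' deposited table).

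Regulators of epithelial junctions were called in V where they were called at all. Of 10 transcription factors of the epithelial-mesenchymal transition ZEB1, a repressor of CDH1, was the only listed gene, with 0.183 in C and 13.4 in V (-6.20 ± 1.32 per the authors' deposited table). Of 15 epithelial regulators 3 were called higher in V: the ETS factor ELF3 with 62.0 in C and 1666 in V (-4.75 ± 0.13 per the authors' deposited table), the splicing factor RBM47 (-1.27 ± 0.07) and HNF4A (-3.57 ± 1.43), with levels of 0.548 in C and 6.49 in V for HNF4A, again from the authors' deposited table. GRHL2, OVOL1 and ESRP1 were not listed. Of 12 junction proteases and related membrane proteins 4 were called, all higher in V. ADAM10, which sheds E-cadherin, had 929 in C and 2641 in V (-1.51 ± 0.10 per the authors' deposited table), and PRSS8, a membrane serine protease, had 165 in C and 563 in V (-1.77 ± 0.12 per the authors' deposited table). MMP9 had 0.226 in C and 5.33 in V, from the authors' deposited table. The derived C levels of ZEB1, HNF4A and MMP9 were under 1, so the sizes of their fold changes are poorly determined. EPCAM itself was not listed.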

How the data were processed

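RNA sequencing (50 bp single ends, from 1 µg of total RNA) of 3 abiraterone-selected and 3 parental libraries was deposited as a single comparison table. Per the file headers, the authors used DESeq2: the mean of normalised counts is a signal value, the log2 fold change is of C over V, score columns hold its standard error and Wald statistic, and p-values are from the Wald test with Benjamini-Hochberg adjustment. FastQC and Cufflinks 2.2.1 appear, with no stated role, per the submitters' processing notes; the sources used here do not give aligner, counter or build. Both a stranded and another library kit are named, so reads of overlapping genes may not be separable. Depth per library is unknown.

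Gene types, positions and exon lengths are GENCODE's (release 29, GRCh38), matched for 5935 of 6018 identifiers. Levels were derived from mean and fold change; 95% intervals are normal intervals from the standard error. Stretches of 50 bases were compared between annotated transcripts. Promoter sequences are RefSeq's (GRCh38.p14). Calculations used Python 3.11.15 and pandas 2.3.3. Only the derivation of levels and the Benjamini-Hochberg adjustment were tested on simulated data. Named were called genes with a derived level of at least 50, the smallest p in each family, listed genes that missed the call, and called partner genes; other members were added after their values were seen. A few genes counted in the totals are not reported here by name. Members, lists and motifs were chosen with earlier results of these data known. Libraries of a group may be technical replicates, so p-values measure only their spread.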

Additional observations from a re-analysis of the deposited data

How the results depend on the processing

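No paired analysis was possible because the table has no column per library, and libraries could not be left out in turn for the same reason. Called members numbered 29 (6 higher in C, 23 in V). Each setting filters the same deposited fold changes, so no direction could change. With a mean of at least 100 the count was 12, with 1 higher in C and 11 in V; 5 were tight junction genes, 2 protocadherins, 2 cadherins, 1 a connexin, 0 CEACAM and 0 desmosomal genes, while the partner lists kept 1 catenin or plaque, 3 keratin or envelope, 0 pannexin, 0 transition factor and 2 epithelial regulator calls. With a mean of at least 10, CEACAM fell to 2, cadherins to 2, connexins to 2, desmosomal genes to 0, transition factors to 0 and epithelial regulators to 2. A 95% interval wholly beyond a log2 of 1 left 19 members, 2 higher in C, with 2 cadherins, 0 desmosomal genes, 0 connexins, 4 protocadherins and 2 epithelial regulators. An adjusted p under 0.01 left 3 members higher in C, 4 protocadherins, 1 connexin, 0 desmosomal genes and 2 epithelial regulators, beside 22 members in all. At a log2 size of 2 or more, 20 members stayed, 15 of them higher in V, with 1 cadherin, 4 tight junction genes, 2 connexins, 1 nectin, 0 catenin or plaque partners, 0 scaffold partners, 2 epithelial regulators and 2 proteases. Adjusting p over the listed genes alone called all 36 members, 5 of them cadherins and 11 protocadherins. Every listed p was already under 0.05, so this setting was bound to call each listed gene. It likewise called all 2954 listed protein-coding genes, so it says nothing about the members. Members of every gene type gave 31 calls, 2 desmosomal and 3 nectin among them, and leaving out clustered protocadherins gave 25, with 4 higher in C and 4 protocadherins. The share of called members higher in V ran from 75.0% to 91.7% over the settings on p, fold and mean, beside 63.0% to 74.4% for all protein-coding genes. At a log2 size of 2 or more the shares were nearly equal, 75.0% for members and 74.4% for all protein-coding genes. They lay furthest apart with a mean of at least 100, at 91.7% and 63.0%. Depth per library is unknown; the median standard error was 1.25 below a mean of 10 and 0.0859 from 1000 up.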

Other observations

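Antisense RNAs of 2 junction genes were also in the authors' deposited table and are not counted among the members. DSG1-AS1, antisense to a desmoglein gene, was higher in C with derived levels of 18.8 in C and 1.70 in V (3.47 ± 0.57), while DSG1 itself was not listed. NECTIN3-AS1 was higher in V with 4.66 in C and 13.6 in V (-1.55 ± 0.57 per the authors' deposited table), and NECTIN3 was not listed.

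Several close genomic neighbours or partners of called genes were absent from the list: CDH1 beside CDH3, CLDN3 beside CLDN4, MARVELD2 beside OCLN, and CLDN16, which starts within 65 bases of CLDN1 on the opposite strand. The luminal markers KLK3 and KLK2 were higher in C, with KLK3 at 15170 in C and 3363 in V in derived counts, from the authors' deposited table, whereas KRT8 was higher in V. Of 10 fibroblast markers 3 were called, 1 with C and 2 with V on the higher side, and their summed derived levels were 91.0 in C and 329 in V.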
